A study of Mus musculus with 8 samples.

Results

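The genes described here encode the nuclear-coded subunits of the mitochondrial respiratory chain and ATP synthase, with the complex I assembly factors whose symbols share the Ndufa prefix. Members were taken by symbol, as probe sets annotated to 1 gene whose symbol begins with Ndufa, Ndufb, Ndufc, Ndufs, Ndufv, Uqcr, Cox4 to Cox8 or Atp5, together with Sdha to Sdhd and Cycs. This gave 90 of 19937 measured genes, on 117 of 28768 probe sets, and for the 18 members with several probe sets the brightest over all arrays was used. By role there were 6 core subunits, 28 accessory subunits and 7 assembly factors of complex I, 4 subunits of complex II, 8 of complex III, cytochrome c, 11 subunits of complex IV, 17 of complex V and 8 isoforms known from particular tissues. Another 6 probe sets were shared with a further gene and were left out, which is why Cox7c and Ndufb4 are not among the members. Subunits encoded by mitochondrial DNA were not analysed here.

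Regulatory T cells (Tregs) are CD4 T cells that hold immune responses in check, and FoxP3 is their defining transcription factor. FoxP3+ Tregs came from Bcl6 knock-out mice, lacking a transcriptional repressor of follicular helper T cells, and from wild-type mice. After 16 hours of stimulation through CD3 and CD28, total RNA was hybridised to 4 arrays labelled KO and 4 labelled WT. A group comprised preparations 1 and 2, with arrays A and B of each. The labels give no age, strain or promoter of the deletion, and do not say whether preparations or letters were separate mice or cultures, so the p-values rest on array-to-array spread that may be purely technical.

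The respiratory chain moves electrons from NADH and succinate to oxygen. Complex I takes them from NADH and complex II from succinate. Both pass them to ubiquinone, complex III to cytochrome c and complex IV to oxygen, while complexes I, III and IV pump protons across the inner membrane. Complex V, the ATP synthase, uses the proton gradient to make ATP. Activated T cells build up mitochondria, and Tregs are known for their reliance on oxidative phosphorylation.

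Several facts of the arrays bear on every value below. Bcl6 itself was 8.72 ± 0.24 log2 in the arrays labelled KO and 8.13 ± 0.25 log2 in WT (SD, n = 4 each; limma adjusted p = 0.701). The part of the gene that was deleted is not described in the labels, so this level does not check them, and the group is called KO-labelled. Within an array, the SD across all log2 values reached 1.87 (KO 1A), 1.84 (KO 1B), 1.65 (KO 2A) and 1.61 (KO 2B), against 1.56 to 1.70 for WT arrays. The mean of 3 Y-linked genes was 4.62 to 4.80 log2 in the KO-labelled arrays and 6.94 to 8.30 log2 in WT, so the Y-linked level ran with the label. Foxp3 was 10.75 ± 0.31 log2 in the KO-labelled arrays and 9.91 ± 0.28 log2 in WT (SD, n = 4 each). Of 30 markers of B, CD8 T, NK, myeloid, erythroid and platelet cells, 24 were measured. Their list medians differed by -0.21 to -0.04 between KO-labelled and WT arrays, and 0 of them were called higher and 11 lower in KO 1 than in KO 2, beside 29.6% and 33.5% of all genes. Of 7 Treg markers, 4 were called higher in KO 1 than in KO 2, or 57.1%, beside the same 29.6%. Their median level was 10.47 log2, and 64.7% of all genes at 10 to 11 log2 were called higher. The mean level of the Treg markers ranged over 10.58 to 11.32 log2 on KO-labelled arrays, against 9.83 to 10.59 log2 on WT arrays. For CD8 T cell markers the ranges were 7.16 to 7.58 on KO-labelled arrays, against 7.40 to 7.73 on WT arrays, and for platelet markers 6.08 to 6.59 against 6.35 to 6.73. Their part in the results was not tested.

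Over the 4 KO-labelled arrays most members lay above WT, but none passed the test. Of 90 members, 80 had a log2 difference above 0, against 8616 of 19937 genes, and the members' differences ran from -0.44 to 1.09. Without the tissue-restricted isoforms the median was 0.57 over 82 members, against -0.06 over all genes. Limma called 0 members higher, beside 0.12% of all genes, and 0 lower, beside 0.015%. At an unadjusted p under 0.05 there were 14 members higher, or 15.6%, and 0 lower, against 5.65% of all genes higher. These were Atp5g3, Cox5a, Cox6c, Cox7b, Ndufa1, Ndufa9, Ndufaf7, Ndufb7, Ndufb8, Ndufb9, Ndufc2, Sdhb, Sdhd and Uqcr10. In 14 members all KO-labelled arrays lay above all WT arrays, and the background share of such genes was 6.67%. In 0 members all lay below, against 2.11% of all genes. After quantile normalization 0 members were called, beside 0.607% of all genes higher and 0.181% lower. In these bulk samples, fewer cells of a type and less RNA per cell cannot be told apart.

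The 2 KO preparations were far apart. The median of the 82 members was 0.98 log2 above the WT mean in KO 1 and 0.17 in KO 2. Between the preparations, 70 of 90 members were called higher in KO 1 than in KO 2, beside 29.6% of all genes, and 5 were called lower, beside 33.5%. The 5 were Cox4i2, Cox6a2, Cox6b2, Cox8b and Ndufa4l2, all tissue-restricted isoforms. After quantile normalization 43 were called higher and 2 lower (Atp5l and Cox6a2), beside 16.9% and 7.44% of all genes. The count of higher members was 38 without KO 1A and 42 without KO 2B, and that of lower members 2 or 3 without any 1 KO array. Against WT, 76 members were called higher and 5 lower in KO 1, with a background of 31.5% and 39%. In KO 2 against WT 0 members were called, with a background of 0.933% higher and 0.176% lower. There 7 members were higher at an unadjusted p under 0.05, namely Cox5a, Cox7b, Ndufa1, Ndufc2, Ndufs5, Sdhb and Sdhd, beside 5.48% of all genes, and Cox7a2l was lower. Both KO 2 arrays lay within the range of the 4 WT arrays in 47 of 90 members, a share of 52.2% against 56.3% of all genes.

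**Figure D1:**
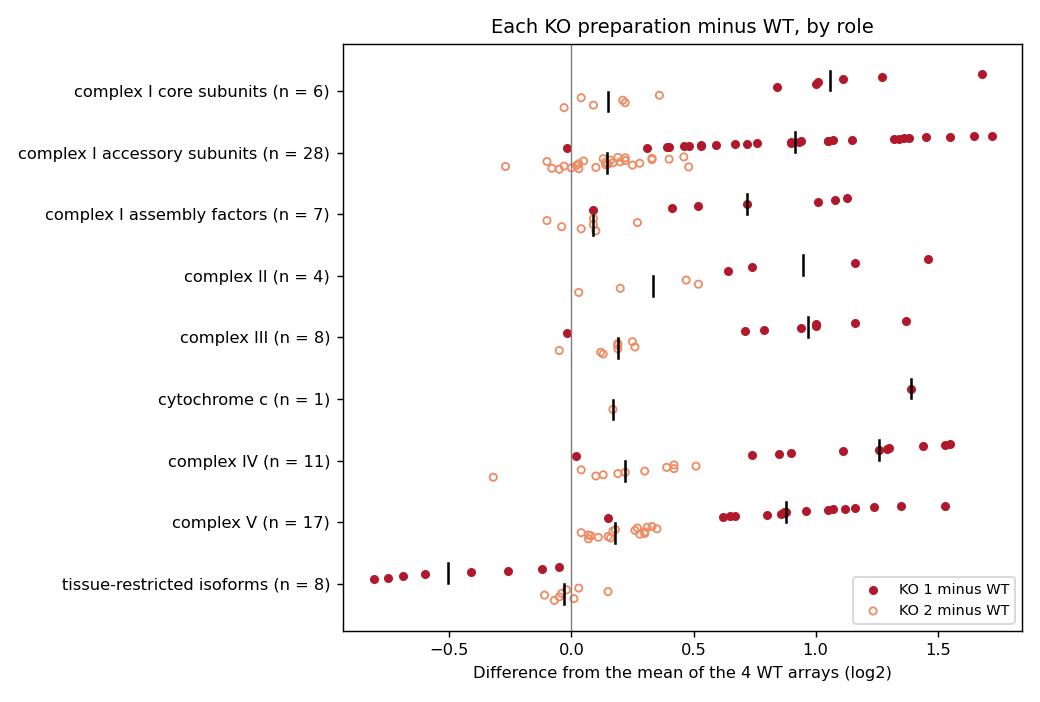
Difference of each KO preparation from the WT mean (log2, horizontal axis) for the 90 members, in rows by role. Filled points are members in KO 1 and open points members in KO 2, vertical bars mark role medians, and KO 1 lies to the right of KO 2 in every role except the tissue-restricted isoforms, with medians of -0.51 in KO 1 and -0.03 in KO 2.

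The level of a gene on the array was related to this difference. The 30 members with a mean of 8 to 9 log2 had a median of 0.97 above WT in KO 1, against 0.67 for all genes of that band. The medians for members and for all genes were 1.01 and 0.80 at 9 to 10 log2, and 1.11 and 0.80 at 10 to 11 log2. The shares called higher in KO 1 than in KO 2 were also high among all genes of these bands. They were 26 of 30 members against 70.4% of genes at 8 to 9 log2, 13 of 15 against 76.9% at 9 to 10, and 17 of 18 against 64.7% at 10 to 11. Below 8 log2, 10 of 15 members at 7 to 8 log2 were called higher, against 33.5% of genes. Quantile normalization, which gives every array the same distribution, lowered the medians of these bands and brought that of all genes in KO 1 to -0.01, against -0.13 as deposited. In KO 1 they became 0.49 for members and 0.20 for all genes at 8 to 9 log2, 0.54 and 0.29 at 9 to 10, and 0.69 and 0.41 at 10 to 11.

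**Figure D2:**
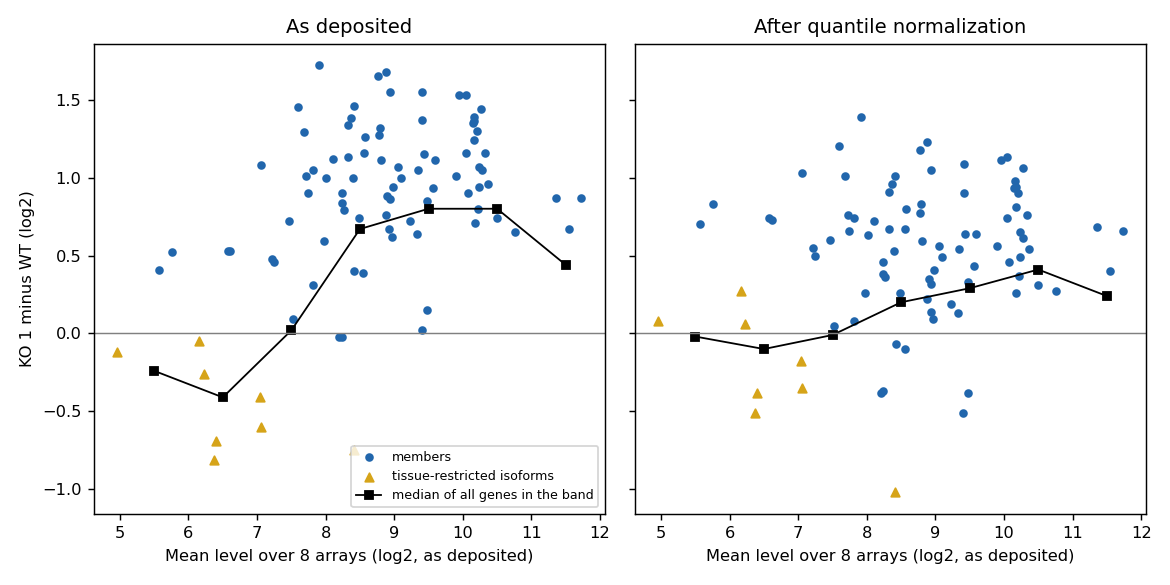
KO 1 minus WT (log2, vertical axis) against the mean level over 8 arrays (log2, horizontal axis), as deposited and after quantile normalization. Circles are members, triangles tissue-restricted isoforms, and the line joins the medians of all genes in bands of level; at 8 to 11 log2 the member medians lie above those of all genes in both panels.

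The members were examined array by array, beside the spread of each array. The median of the 82 members deviated from the WT mean by 1.05 in KO 1A, 0.88 in KO 1B, 0.20 in KO 2A and 0.13 in KO 2B. In WT it was -0.19 in 1A, 0.21 in 1B, 0.12 in 2A and -0.16 in 2B. The arrays of widest spread, KO 1A and KO 1B, had the highest medians, and WT 1B, the widest WT array, stood above both KO 2 arrays. Cytosolic ribosomal protein genes covered a narrower range, from 0.31 in KO 1A to -0.20 in WT 1A. Their median level was 11.63 log2, against 8.91 for the 82 members, so the lists were not matched for level. All genes at 11 log2 or more had a median of 0.44 above WT in KO 1, against 0.67 at 8 to 9 log2. In a fit with the array SD as a covariate, an alternative added after the data had been seen, 0 members were called between KO 1 and KO 2, beside 2.01% of all genes higher and 0.993% lower, and the median difference was 0.14, against 0.80 as deposited. The array SD nearly marks preparation KO 1, at 1.87 and 1.84 against 1.56 to 1.70 on the other arrays. Such a fit therefore cannot tell the preparation from the spread of its arrays. The same covariate in the fit of KO-labelled against WT arrays gave 12 of 90 members higher, beside 8.02% of all genes, and 2 lower (Cox7a2l and Ndufb3), beside 4.43%, with a median of 0.12 against 0.03 for all genes. The block correlation of that fit was negative (-0.367), which narrows the SE of the group difference and can add calls. It was not repeated without a block.

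**Figure D3:**
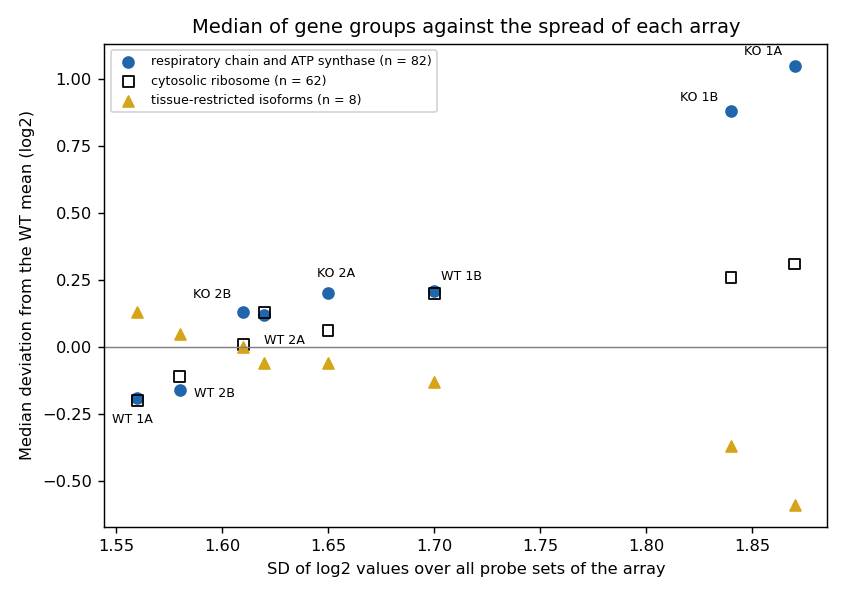
Median deviation of the 82 members (circles), cytosolic ribosomal protein genes (squares) and tissue-restricted isoforms (triangles) from their WT means (log2, vertical axis) against the SD of an array's log2 values (horizontal axis), with a point for each array. KO 1A and KO 1B, at SDs of 1.87 and 1.84, have the highest member medians and isoform medians of -0.59 and -0.37, and the KO 2 and WT arrays lie together between -0.20 and 0.21.

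Promoter windows were available from RefSeq (build GRCm38.p6) for 74 members, each from 250 bases before to 50 after the gene start. They were searched on both strands for short motifs of 4 factors known to act on nuclear-coded mitochondrial genes. The NRF1 motif (GCGCA, any base, GCGC) stood in 18 of 70 members that are not tissue-restricted isoforms, or 25.7%, against 5.19% of 27025 genes with a window and 14% of 4138 genes with a mean level of at least 8 log2. The ETS motif CCGGAAG, bound by GABPA, also stood in 18 of 70, against 9.93% of all genes and 24.4% of the genes of that level. The YY1 motif AAGATGG stood in 14.3%, against 7.28% and 9.71%. The SP1 motif GGGCGG stood in 45.7%, against 38.2% and 72%. Below are the 250 bases before the start of 4 members, 5′ to 3′ on the strand of the gene, with motif matches in capitals and matches on the opposite strand seen as their reverse complement. Sdhd and Sdha are shown as subunits of complex II with and without KO-labelled arrays clear of WT. Cox6a1 and Cox7a2l are complex IV genes, of which Cox6a1 was higher in KO 1 than in KO 2 while Cox7a2l did not pass.
Sdhd, chr9:50603850-50604099, minus strand: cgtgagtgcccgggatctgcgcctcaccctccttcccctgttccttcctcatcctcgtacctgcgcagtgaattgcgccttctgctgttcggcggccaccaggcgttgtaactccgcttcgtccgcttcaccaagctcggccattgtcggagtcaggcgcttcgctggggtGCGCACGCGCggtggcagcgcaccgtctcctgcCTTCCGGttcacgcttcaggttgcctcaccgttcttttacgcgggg
Sdha, chr13:74350241-74350490, minus strand: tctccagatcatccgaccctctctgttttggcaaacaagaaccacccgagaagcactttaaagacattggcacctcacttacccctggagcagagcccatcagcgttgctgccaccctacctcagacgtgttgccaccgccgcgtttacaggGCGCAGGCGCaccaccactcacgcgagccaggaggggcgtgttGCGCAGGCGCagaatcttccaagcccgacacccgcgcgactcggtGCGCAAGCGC
Cox6a1, chr5:115348959-115349208, minus strand: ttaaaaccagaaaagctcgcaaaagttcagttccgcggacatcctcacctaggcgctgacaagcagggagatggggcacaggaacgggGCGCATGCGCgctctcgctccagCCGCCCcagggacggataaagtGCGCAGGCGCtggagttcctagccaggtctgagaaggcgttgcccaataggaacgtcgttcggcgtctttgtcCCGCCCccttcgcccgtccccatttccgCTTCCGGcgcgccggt
Cox7a2l, chr17:83514334-83514583, minus strand: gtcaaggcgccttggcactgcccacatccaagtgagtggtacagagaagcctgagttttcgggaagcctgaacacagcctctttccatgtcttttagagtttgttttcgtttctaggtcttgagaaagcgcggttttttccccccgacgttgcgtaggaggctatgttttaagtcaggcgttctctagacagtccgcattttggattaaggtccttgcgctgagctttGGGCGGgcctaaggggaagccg
Sdhd held an NRF1 match starting 79 bases and an ETS match starting 46 bases before the gene start. Sdha held 3 NRF1 matches, at 98, 55 and 10 bases before it. In Cox6a1 there were NRF1 matches at 162 and 117 bases, SP1 matches at 139 and 44 and an ETS match at 16. Cox7a2l held an SP1 match, at 22 bases before the start. A match is only a run of letters in this window, and its absence says nothing of binding. The 4 printed members do not stand for the rest, since 15 of the 70 held none of the 4 motifs in their windows. Of complex IV genes called higher in KO 1 than in KO 2, Cox7b, Ndufa4 and Cox5b held none. Cox5a, Cox6a1, Cox6b1, Cox7a2 and Cox8a, also called higher, held matches. Whether matches go with the differences was not tested.

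Complex I begins with the core subunits that bind NADH and carry electrons through iron-sulfur clusters. All 6 were called higher in KO 1 than in KO 2, beside 29.6% of all genes. The 6 had a median level of 8.84 log2, and 70.4% of all genes at 8 to 9 log2 were called higher. In KO-labelled against WT arrays 0 of the 6 were called, beside 0.12% of all genes higher and 0.015% lower. Their median was 0.63 above WT, with 1.06 in KO 1 and 0.15 in KO 2. Ndufv1, the flavoprotein that binds NADH, was 9.65 and 9.51 log2 in KO 1 and 8.83 and 8.54 in KO 2, against 8.54, 8.65, 8.53 and 8.16 in WT. The KO 1 arrays stood clear of the rest, and KO 2B fell within WT. The difference between KO 1 and KO 2 was 0.90 (SE 0.18, adjusted p = 0.00251), and that of KO-labelled from WT arrays 0.66 (SE 0.32, adjusted p = 0.701). Ndufv2, its iron-sulfur partner, had the highest difference of the 6 from WT, 1.02 (SE 0.49, adjusted p = 0.701), and the preparations lay at 1.68 (KO 1) and 0.36 (KO 2). Ndufs1, which carries several iron-sulfur clusters, lay 1.27 above WT in KO 1 and 0.04 in KO 2. Its levels were 9.79 and 9.66 log2 in KO 1 and 8.55 and 8.43 in KO 2, against 8.23, 8.86, 8.49 and 8.23 in WT, so both KO 2 arrays lay inside the WT range. Ndufs7 and Ndufs8, the subunits with the last clusters before ubiquinone, differed from WT by 0.55 and 0.40. Ndufs8 was 0.84 above WT in KO 1 and at -0.03 in KO 2.

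The accessory subunits of complex I surround the core and are needed for its assembly and stability. Of 28, 24 were called higher in KO 1 than in KO 2, beside 29.6% of all genes, and 0 lower, beside 33.5%. The 28 had a median level of 8.39 log2, and 70.4% of all genes at 8 to 9 log2 were called higher. Ndufa7, Ndufa11, Ndufs5 and Ndufv3 did not pass. The median difference of the 28 from WT was 0.51, with 0.91 in KO 1 and 0.14 in KO 2. Ndufa1, encoded on the X chromosome, was 9.13 and 9.04 log2 in KO 1 and 7.99 and 7.66 in KO 2, against 7.07, 7.73, 7.69 and 6.98 in WT. KO 2A lay above WT and KO 2B inside it. Its difference from WT was 1.09 (SE 0.44, adjusted p = 0.701), the highest of the 90 members as deposited, and the preparations lay at 1.72 (KO 1) and 0.46 (KO 2). Ndufa9, which sits near the ubiquinone site, exceeded WT by 1.65 in KO 1 and by 0.19 in KO 2, and KO 1 exceeded KO 2 2.76-fold (log2 1.46, SE 0.21, adjusted p = 4.2e-04). Ndufs4, whose loss causes Leigh syndrome in humans, lay 1.32 above WT in KO 1 and 0.16 in KO 2. Ndufc2 had every KO-labelled array above WT, at 11.20 and 10.97 log2 in KO 1 and 10.19 and 10.06 in KO 2, against 9.49, 9.89, 9.88 and 9.64 in WT. It differed by 0.88 (SE 0.34, adjusted p = 0.701).

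Some accessory subunits departed from this pattern. Ndufs5 was 7.46 and 7.46 log2 in KO 1 and 7.25 and 7.66 in KO 2, against 6.41, 7.09, 7.22 and 7.21 in WT. All KO-labelled arrays lay above WT, the preparations stood at the same distance of 0.48 from it, and their own difference was 0.00 (SE 0.24, adjusted p = 0.987). Ndufa7 was at -0.04 from WT (SE 0.25, adjusted p = 0.939), and the preparations lay at -0.02 (KO 1) and -0.05 (KO 2). Ndufb3, of the membrane arm, was 0.53 above WT in KO 1 and at -0.27 in KO 2, with both KO 2 arrays, at 6.26 and 6.29 log2, below all WT arrays, at 6.32 to 6.87. With the array SD as a covariate its difference from WT turned to -0.33 (limma adjusted p = 0.00607), in a fit whose negative block correlation (-0.367) narrows the SE.

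Complex I assembly factors are not part of the finished complex. Of 7, 6 were called higher in KO 1 than in KO 2, beside 29.6% of all genes, and Ndufaf3 was not. The 7 had a median level of 7.47 log2, and 33.5% of all genes at 7 to 8 log2 were called higher. The median difference from WT was 0.40, with 0.72 in KO 1 and 0.09 in KO 2. Ndufaf7, a methyltransferase that acts on a core subunit, differed from WT by 0.64 (SE 0.28, adjusted p = 0.701), and the preparations lay at 1.01 (KO 1) and 0.27 (KO 2). Ndufaf1 exceeded WT by 1.13 in KO 1 and by 0.09 in KO 2. Ndufaf6, at 0.22 from WT, was 5.85 and 5.88 log2 in KO 1 and 5.46 and 5.53 in KO 2, against 5.34 to 5.51 in WT. Ndufaf3 was 7.57 ± 0.10 log2 in the KO-labelled arrays and 7.47 ± 0.07 in WT (SD, n = 4 each), and its groups overlapped.

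Complex II, succinate dehydrogenase, is shared with the tricarboxylic acid cycle, and all its subunits are nuclear-coded. Its medians were 0.95 above WT in KO 1 and 0.34 in KO 2, and the KO 2 value was the highest of the roles. Sdhd, a membrane anchor, had the smallest unadjusted p of all members, 0.0098. It was 9.41 and 9.20 log2 in KO 1 and 8.80 and 8.52 in KO 2, against 8.03, 8.25, 8.23 and 8.04 in WT, with every KO-labelled array above every WT array. The difference was 0.84 (SE 0.28, adjusted p = 0.561). In KO 2 alone it was 0.52, with an unadjusted p of 0.00267 and an adjusted p of 0.135. Sdhb, the iron-sulfur subunit, was 9.54 and 9.24 log2 in KO 1 and 8.38 and 8.42 in KO 2, against 7.62, 8.16, 7.93 and 8.01 in WT, again without overlap. It differed by 0.96 (SE 0.34, adjusted p = 0.612), with 0.47 in KO 2 (adjusted p = 0.33). Sdhb and Sdhd were called higher in KO 1 than in KO 2, by 0.99 (SE 0.18, adjusted p = 0.00167) and 0.64 (SE 0.16, adjusted p = 0.00651). After quantile normalization, 0 of the 4 subunits were called between the preparations, beside 16.9% of all genes higher and 7.44% lower.

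The other subunits of complex II lay closer to WT in KO 2. Sdha, the flavoprotein that oxidises succinate, was 11.02 and 10.99 log2 in KO 1 and 10.51 and 10.43 in KO 2, against 9.94, 10.52, 10.52 and 10.10 in WT. Both KO 2 arrays lay inside the WT range, and KO 1 minus KO 2 was 0.53 (SE 0.22), just short of the threshold (adjusted p = 0.0529). Sdhc, the other membrane anchor, lay 0.64 above WT in KO 1 and 0.03 in KO 2, and was called higher in KO 1 than in KO 2 (adjusted p = 0.00571).

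**Figure D4:**
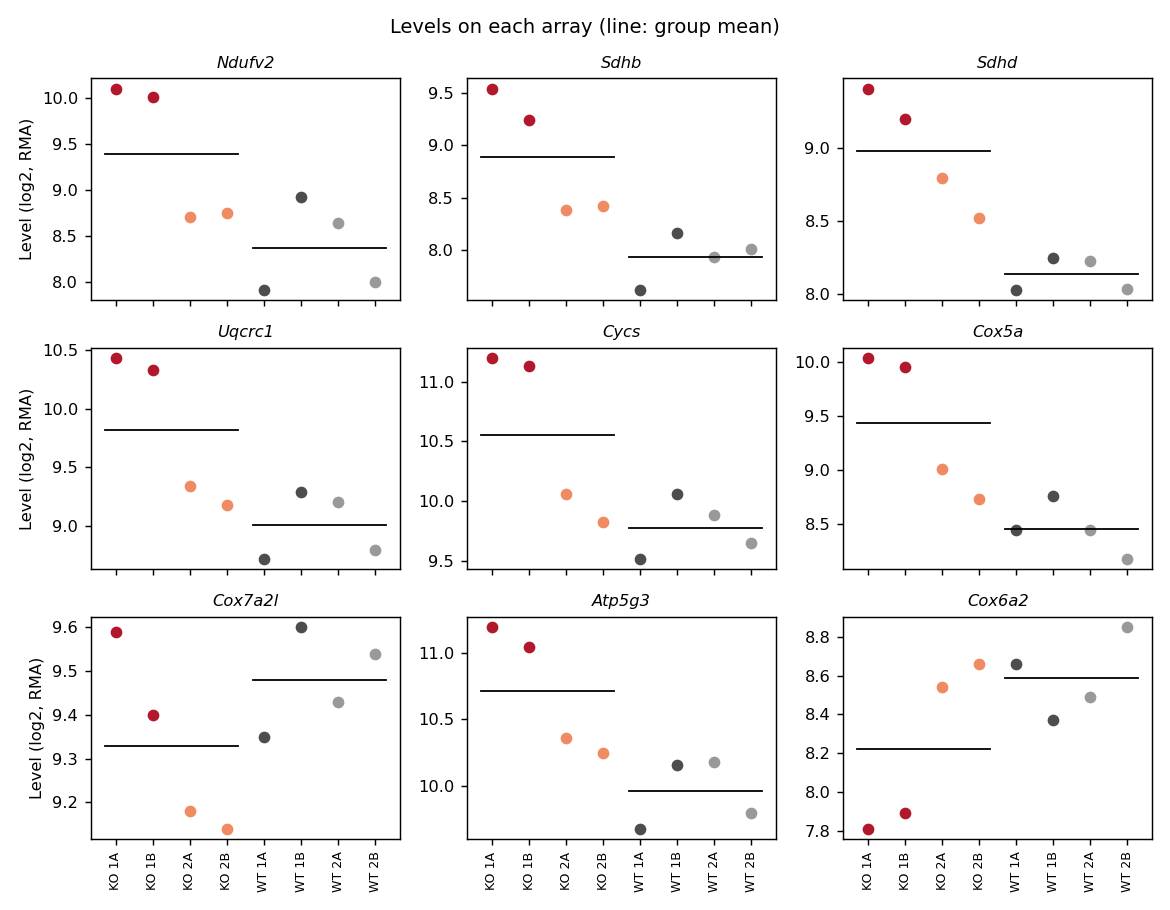
Log2 level of selected members in each of the 8 arrays, with KO 1, KO 2 and WT from left to right in each panel and bars at the group means. In Sdhd, Sdhb and Atp5g3 all KO-labelled arrays lie above all WT arrays, and in Cox7a2l the KO 2 arrays lie below them.

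Complex III passes electrons from ubiquinol to cytochrome c. Of 8 members 7 were called higher in KO 1 than in KO 2, beside 29.6% of all genes. The 8 had a median level of 8.91 log2, and 70.4% of all genes at 8 to 9 log2 were called higher. The median difference from WT was 0.58, with 0.97 in KO 1 and 0.19 in KO 2. Uqcrc1, a core subunit, was 10.43 and 10.33 log2 in KO 1 and 9.34 and 9.18 in KO 2, against 8.72, 9.29, 9.21 and 8.80 in WT. It was 1.12 higher in KO 1 than in KO 2 (SE 0.21, adjusted p = 0.00157). The Rieske iron-sulfur protein Uqcrfs1 exceeded WT by 1.00 in KO 1 and by 0.19 in KO 2, and Uqcrb, which contacts ubiquinone, 1.16 and 0.19. Uqcrq was 0.79 above WT in KO 1 and at -0.05 in KO 2. Uqcr10 had all KO-labelled arrays above WT, at 8.90 and 8.49 log2 in KO 1 and 7.92 and 8.00 in KO 2, against 7.62 to 7.78 in WT. Uqcr11 did not pass, with 8.14 and 8.26 log2 in KO 1, 8.46 and 8.24 in KO 2, and 8.42, 8.04, 7.92 and 8.48 in WT. Its second probe set gave a difference from WT of 0.39, against 0.06 for the set used.

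Cytochrome c carries electrons from complex III to complex IV and, released from mitochondria, starts apoptosis. Cycs was 11.20 and 11.13 log2 in KO 1 and 10.06 and 9.82 in KO 2, against 9.51, 10.06, 9.88 and 9.65 in WT. KO 1 stood 2.32-fold above KO 2 (log2 1.22, SE 0.21, adjusted p = 0.00112). KO 2A matched the highest WT array to 2 decimals, and KO 2B lay within the WT range. Of its 3 probe sets, the 2 brighter, with means of 10.16 and 9.40 log2, gave 0.78 and 0.82 between KO-labelled and WT arrays. The dim one, at 6.29 log2, gave 0.02.

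Complex IV reduces oxygen. Its ubiquitous nuclear subunits include Ndufa4, named for complex I but since placed here. Of 11, 10 were called higher in KO 1 than in KO 2, beside 29.6% of all genes. The 11 had a median level of 9.48 log2, and 76.9% of all genes at 9 to 10 log2 were called higher. The median of 1.26 above WT in KO 1 was the highest of the roles with several members, against 0.22 in KO 2. Cox5a, next to the catalytic core, was 10.04 and 9.96 log2 in KO 1 and 9.01 and 8.73 in KO 2, against 8.44, 8.76, 8.44 and 8.17 in WT. KO 2A lay above WT and KO 2B within it, and the difference of KO-labelled from WT arrays was 0.98 (SE 0.35, adjusted p = 0.617). Cox7b was 11.01 and 10.93 log2 in KO 1 and 10.05 and 9.86 in KO 2, against 9.12, 9.80, 9.59 and 9.25 in WT. All KO-labelled arrays were higher, by 1.02 on average (SE 0.38, adjusted p = 0.67), and the preparations lay at 1.53 (KO 1) and 0.51 (KO 2). Cox6c likewise did not overlap, with 1.44 in KO 1 and 0.39 in KO 2. Cox4i1, the ubiquitous form of subunit 4, lay 0.85 above WT in KO 1 and 0.13 in KO 2. Cox8a exceeded WT by 0.74 in KO 1 and by 0.10 in KO 2.

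Cox7a2l, which joins complexes III and IV into a supercomplex, had the opposite sign in KO 2. It was 9.59 and 9.40 log2 in KO 1 and 9.18 and 9.14 in KO 2, against 9.35, 9.60, 9.43 and 9.54 in WT. Both KO 2 arrays were below all WT arrays, at -0.32 from the WT mean, with an unadjusted p of 0.0423 and an adjusted p of 0.642. KO 1 was at 0.02 from WT, and KO 1 minus KO 2 was 0.34 (SE 0.16, adjusted p = 0.0855). Its 2 probe sets gave -0.15 and -0.12 between KO-labelled and WT arrays. The related Cox7a2, part of complex IV in most tissues, lay 1.29 above WT in KO 1 and 0.04 in KO 2, and was called higher in KO 1 than in KO 2 (1.25, SE 0.20, adjusted p = 8.2e-04).

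Complex V joins a catalytic head to a rotor in the membrane. All 17 members were above WT in both preparations, with medians of 0.88 in KO 1 and 0.18 in KO 2. Of them 13, or 76.5%, were called higher in KO 1 than in KO 2, beside 29.6% of all genes. The 17 had a median level of 10.22 log2, and 64.7% of all genes at 10 to 11 log2 were called higher. Of 19937 genes, 8513 were above WT in KO 1 and 11300 in KO 2. Atp5a1, Atp5b and Atp5c1, the alpha, beta and gamma subunits, were 3 of the 4 that did not pass. Atp5b, the catalytic subunit, was 12.34 and 12.30 log2 in KO 1 and 11.76 and 11.68 in KO 2, against 11.11, 11.78, 11.63 and 11.27 in WT. Both KO 2 arrays lay inside the WT range, and KO 1 minus KO 2 was 0.60 (SE 0.26, adjusted p = 0.0586). These 3 were also the members with a mean of 11 log2 or more, a band in which 11.2% of all genes were called higher. After quantile normalization 12 of the 17 members were called higher in KO 1 than in KO 2, beside 16.9% of all genes. Atp5a1, Atp5b and Atp5c1 were then among the 12 (limma adjusted p = 0.0296, 0.0163 and 0.042). Among other subunits, as deposited, Atp5d was called higher in KO 1 by 1.05 (SE 0.26, adjusted p = 0.00619) and Atp5e by 0.46 (SE 0.19, adjusted p = 0.0461).

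The rotor ring is built of subunit c, whose mature protein is the same from the genes Atp5g1, Atp5g2 and Atp5g3. All were called higher in KO 1 than in KO 2, by 0.79, 0.66 and 0.81. Atp5g3 was 11.19 and 11.04 log2 in KO 1 and 10.36 and 10.25 in KO 2, against 9.68, 10.16, 10.18 and 9.80 in WT. Atp5g2 likewise had no overlap, with 0.96 in KO 1 and 0.30 in KO 2, while Atp5g1 was at 0.86 and 0.07. Of the stalk, Atp5h exceeded WT by 0.65 in KO 1 and by 0.11 in KO 2. Atp5md, a small subunit linked to dimers of the synthase, had the highest difference from WT in complex V, 0.93 (SE 0.44, adjusted p = 0.701), and the preparations lay at 1.53 (KO 1) and 0.33 (KO 2). Atp5l, subunit g of the membrane part, was the other member that did not pass, at 9.54 ± 0.10 log2 in the KO-labelled arrays and 9.42 ± 0.11 in WT (SD, n = 4 each). After quantile normalization Atp5l was called lower in KO 1 than in KO 2 (-0.39, adjusted p = 0.0337).

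Isoforms known from particular tissues were on the other side of 0. They comprise Cox6a2, Cox7a1 and Cox8b of heart and skeletal muscle, Cox4i2 of lung, Cox6b2, Cox7b2 and Cox8c of testis, and Ndufa4l2, which hypoxia induces. As deposited, all 8 were below WT on average, as were 11321 of 19937 genes, and the isoforms had medians of -0.51 in KO 1 and -0.03 in KO 2. Cox6a2 was 7.81 and 7.89 log2 in KO 1 and 8.54 and 8.66 in KO 2, against 8.66, 8.37, 8.49 and 8.85 in WT. It was called lower in KO 1 than in KO 2 by limma (-0.75, SE 0.17, adjusted p = 0.00391). Cox8b was 5.73 and 5.82 log2 in KO 1 and 6.57 and 6.46 in KO 2, against 7.13, 6.13, 6.38 and 6.71 in WT, and was called lower (-0.74, SE 0.24, adjusted p = 0.0191). Ndufa4l2 was called lower by -0.41 (SE 0.14, adjusted p = 0.0263), and Cox7a1 did not pass (-0.08, SE 0.14, adjusted p = 0.603). These members had a median level of 6.38 log2 over the 8 arrays. In KO 1, the 4 isoforms with a mean of 6 to 7 log2 differed from WT by -0.05 (Cox7a1), -0.26 (Ndufa4l2), -0.69 (Cox6b2) and -0.81 (Cox8b), on either side of the median of -0.41 for all genes of that level. After quantile normalization only Cox6a2 of the 8 was called lower in KO 1 than in KO 2, beside 7.44% of all genes. In KO-labelled against WT arrays 3 of the 8 then lay above WT, Cox7a1 at 0.14, Ndufa4l2 at 0.10 and Cox7b2 at 0.02.

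Other mitochondrial pathways were examined through lists of genes. In KO-labelled against WT arrays limma called 0 genes in any list; at an unadjusted p under 0.05, the share of higher genes in the mitochondrial lists ran from 4.17% of the 24 import genes to 21.4% of the 14 fatty acid oxidation genes, beside 5.65% of all genes. Between the KO preparations, 16 of 16 tricarboxylic acid cycle genes and 13 of 14 fatty acid oxidation genes were called higher in KO 1. So were 11 of 11 carrier and antioxidant genes and 20 of 24 protein import genes, beside 29.6% of all genes. These lists had median levels of 8.49 to 9.51 log2. Of all genes, 70.4% at 8 to 9 log2 and 76.9% at 9 to 10 were called higher. The medians of these lists above WT were 1.06 in KO 1 and 0.11 in KO 2 for the cycle, 1.09 and 0.19 for fatty acid oxidation, 1.15 and 0.25 for carriers and antioxidants, and 0.85 and 0.16 for import. Of 77 mitochondrial ribosomal protein genes 66 were called higher in KO 1 than in KO 2, beside the same 29.6%, and their medians were 0.90 and 0.08. Among 34 other genes of the chain and its assembly, 25 were called higher and Uqcc2 lower, beside 29.6% and 33.5% of all genes. Cyc1, the cytochrome c1 of complex III, was 10.28 and 10.27 log2 in KO 1 and 9.49 and 9.40 in KO 2, against 8.80, 9.23, 9.23 and 8.77 in WT, a difference from WT of 0.85 (SE 0.33, adjusted p = 0.701) without overlap. The 62 genes with cytosolic ribosomal protein symbols had medians of 0.28 in KO 1 and 0.02 in KO 2, with 4 called higher (Rpl12, Rpl14, Rps19bp1 and Rps27l) and 3 lower (Rpl29, Rpl3l and Rps23rg1), beside 29.6% and 33.5% of all genes. Their median level was 11.63 log2, and 11.2% of all genes at 11 log2 or more were called higher. Over all genes the medians were -0.13 in KO 1 and 0.02 in KO 2.

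**Figure D5:**
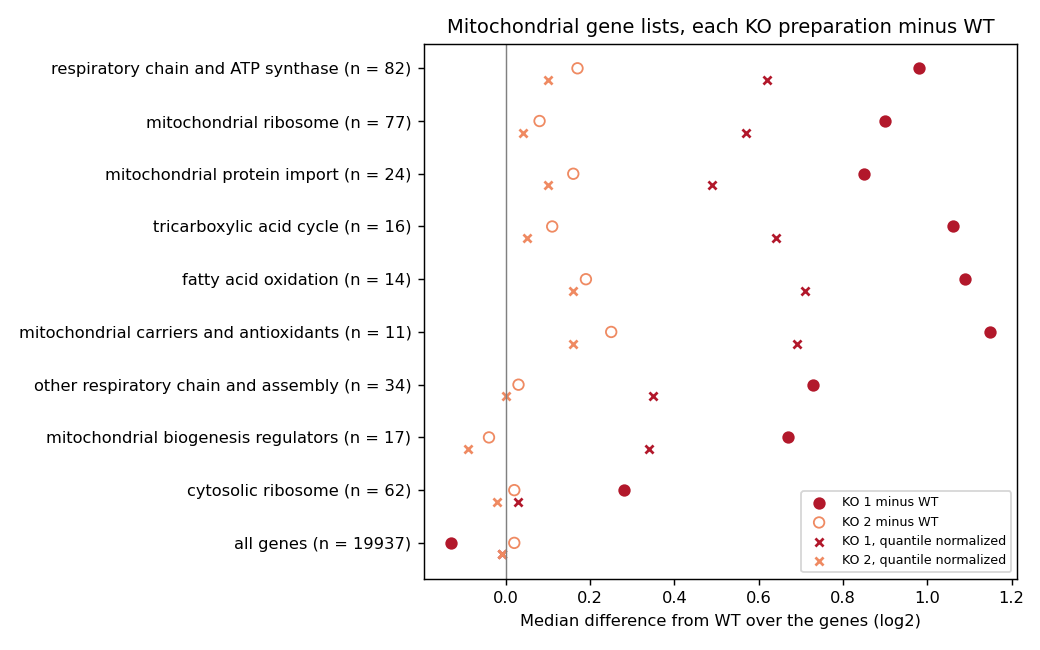
Median difference from the WT mean (log2, horizontal axis) of the members and of the other gene lists in KO 1 and KO 2, with all genes for comparison; circles are values as deposited and crosses those after quantile normalization. As deposited the mitochondrial lists lie between 0.67 and 1.15 in KO 1 and between -0.04 and 0.25 in KO 2, and cytosolic ribosomal protein genes at 0.28 and 0.02.

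Not all regulators of mitochondrial gene expression were called between the preparations. Of 17 measured, 12 were called higher in KO 1 than in KO 2, beside 29.6% of all genes, and Esrra, Nrf1, Polrmt, Ppargc1a and Ppargc1b did not pass. Tfam, which packages and transcribes mitochondrial DNA, was 8.82 and 8.55 log2 in KO 1 and 7.44 and 7.08 in KO 2, against 6.74, 7.80, 7.19 and 6.58 in WT. It lay 1.61 above WT in KO 1 and 0.19 in KO 2, with both KO 2 arrays inside the WT range. Myc, a factor of growth and mitochondrial biogenesis, exceeded WT by 1.34 in KO 1 and by 0.14 in KO 2, and was called higher in KO 1 than in KO 2 (1.19, SE 0.23, adjusted p = 0.00208). Nrf1, which binds the motif of that name, was at 0.19 in KO 1 and -0.14 in KO 2, and KO 1 minus KO 2 was 0.32 (SE 0.18, adjusted p = 0.115). The coactivator Pprc1 was 0.56 above WT in KO 1 and at -0.07 in KO 2, and was called higher in KO 1 (adjusted p = 0.00656). The coactivators Ppargc1a and Ppargc1b were at -0.39 and -0.29 from WT in KO 1 and at -0.08 and -0.04 in KO 2. Both were dim, with means of 5.29 and 6.36 log2 in the KO-labelled arrays and 5.52 and 6.52 in WT. In KO 1 the medians of all genes were -0.24 below 6 log2 and -0.41 at 6 to 7 log2. Esrra, a nuclear receptor that works with these coactivators, was at 0.11 in KO 1 and -0.03 in KO 2.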

How the data were processed

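Expression was measured on 8 arrays, 4 KO-labelled and 4 WT, with 100 ng of total RNA each, per the labels' protocols. The submitters' processing notes name RMA and Partek, and the values deposited by the authors are on the log2 scale, 1 for each probe set. Neither note nor label gives versions, the genome build or filters. As a method RMA corrects background and normalizes between arrays, yet array SDs differed, which can widen or narrow differences for whole bands of level. Scanner files and probe detection calls were not used here, and the number of arrays limits precision.

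Gene names came from the platform annotation, and all 90 members matched RefSeq by gene identifier. Probe sets with 1 symbol were kept, the brightest per gene, with no filter on dim sets and 0 missing values. No arrays held identical values.

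The contrast of KO-labelled with WT arrays used lmFit and trended eBayes of limma 3.58.1 under R 4.3.3, with the preparation as a random block (correlation 0.617). A second fit without a block gave means of KO 1, KO 2 and WT; its 3 comparisons share arrays. Calls are two-sided Benjamini-Hochberg adjusted p under 0.05 over 19937 genes. Differences are log2, errors are SE of the fitted difference or SD, and folds are powers of 2 of it. The procedure was tested on simulated data.

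Members, lists and the rule for named genes were chosen with earlier results of these data known. The rule named called members of KO-labelled minus WT, in each role the highest and lowest differences from WT, key subunits and selected regulators. Other genes, such as Ndufs5, Ndufc2, Cox6c, Uqcr10 and Cox7a2, were named after their values were seen. Alternatives were quantile or median scaling, other blocks, variance models and weights, other probe sets, a mean level of at least 6, and leaving out arrays or preparations. The array SD as a covariate and fits without a KO preparation and a block were added after seeing the data.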

Additional observations from a re-analysis of the deposited data

How the results depend on the processing

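As deposited, limma called 24 genes higher and 3 lower in KO-labelled than in WT arrays. These counts were 92 and 21 with no block, 45 and 7 on preparation means, 39 and 8 with a block by letter, and 121 and 36 after quantile normalization, and 12 were higher after median centring. Leaving out 1 array gave 13 to 51 higher and 2 to 6 lower. No label says that a number marks a shared mouse, batch or day, and 2 numbers are too few to settle a pairing. Deviations from the group means correlated at 0.416 between KO 1 and WT 1, and at -0.691, 0.771, -0.42 and 0.682 between arrays of the same number and letter (1A, 1B, 2A and 2B). The replicate block by number gave 620 and 57 genes, with 5 members higher (Cox5a, Cox7b, Ndufa1, Sdhb and Sdhd), and the replicate block by number and letter 98 and 15 genes, with 0 members.

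Without preparation KO 1 there were 1124 genes higher and 341 lower, with 9 members higher and 1 lower and a median of 0.17, but with no block 128 and 16 genes and 0 members. Without KO 2 there were 7234 and 9666 genes, with 77 members higher and 7 lower and a median of 0.98, and with no block 5997 and 7381 genes and 75 and 5 members. Without WT 1, 8 genes were higher, and without WT 2 limma called 0 genes and 0 members. With the array SD as a covariate, 1599 genes were higher and 884 lower, with 12 members higher, 2 lower and a median of 0.12. The block correlation was negative in the blocked fits without KO 1 (-0.629), without KO 2 (-0.642) and with the covariate (-0.367). A negative value narrows the SE of the group difference and can add calls. The covariate fit was not repeated without a block. In the remaining fits the median lay between 0.36 and 0.67. With the covariate Ndufb3 was called at -0.33; the cause was not tested.

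Between KO 1 and KO 2, 5900 genes were higher and 6680 lower as deposited, against 3370 and 1483 after quantile normalization, when members were at 43 and 2. With the array SD as a covariate they were 400 and 198, with 0 members and a median of 0.14, but this covariate nearly marks preparation KO 1. Leaving out 1 array gave 2832 to 6632 genes higher and 1840 to 8052 lower, with 38 to 76 members higher and 2 to 6 lower. The lowest gene counts came without KO 1A. The median of members stayed between 0.46 and 0.88 in the other fits. For KO-labelled against WT arrays, 1133 values of 42 named members were compared under 27 settings. Of these, 997 kept direction and side of the threshold, 91 passed it anew, 44 changed sign without a call and 1 turned round with a call. As deposited 0 members were called in that contrast, so keeping the side meant staying uncalled. These values do not cover the calls between KO 1 and KO 2. Each preparation had 2 arrays, so differences between preparations and between mice cannot be told apart.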

Other observations

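Probe sets of a gene did not always move alike. Among the 18 members with several sets, all sets of a gene had the same sign between KO-labelled and WT arrays, and in 5 members they differed by over 0.2 log2. These were Cycs at 0.02 to 0.82, Ndufc1 at 0.59 to 0.98, Uqcr11 at 0.06 to 0.39, Atp5pb at 0.43 to 0.75 and Cox6c at 0.67 to 0.92. The 0.02 of Cycs came from a dim set, at 6.29 log2.

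Hadh, a fatty acid oxidation enzyme, was the only gene of the mitochondrial lists called higher in KO 2 than in WT, at 1.00 (limma adjusted p = 0.0172), with 1.97 in KO 1. It was named after its values were seen.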
